A study of Sus scrofa with 6 samples.

Results

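The mitochondrial ribosome is built from RNAs encoded in the mitochondrial genome and from proteins encoded in the nucleus, most of them under the symbols MRPL (large subunit) and MRPS (small subunit). The genes described here are those whose pig symbol starts with MRPL or MRPS followed by a number. There were 64 of them among the 21280 protein-coding genes of the deposited table, 40 MRPL and 24 MRPS genes. The RefSeq annotation of the pig assembly Sscrofa11.1 names 77 such symbols, and the 13 without a matched row were not analysed here.

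Mitochondrial ribosomes translate only the few proteins that the mitochondrial genome encodes, all of them parts of the respiratory chain and of ATP synthase, on which neurons rely for energy. Part of the proteins have counterparts in bacterial ribosomes, and others arose in the mitochondrial lineage, where the ribosome holds more protein and less RNA than in bacteria. A complete ribosome needs its proteins in fixed proportions, and several of these genes are mutated in inherited mitochondrial disease.

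RNA came from the brain of 3 wild boars and, as the domestic group, 3 pigs of the Chinese Rongchang breed. All 6 are labelled female and 2 years old, and no treatment or engineered allele is named. The wild boar samples are labelled brain and the Rongchang samples, re-analysed from an earlier deposit, cerebrum, while the series title names prefrontal cortex. Breed, source of the data and labelled tissue therefore divide the 6 libraries in the same way and cannot be told apart in any difference below. The p-values measure the spread between these libraries.

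Values are TPM, transcript levels scaled by length and to a fixed library total, which can be compared between genes but keeps no read depth, so no counting interval can be given. The listed genes summed to between 17.2% and 40.9% of 1000000 TPM per library, so each library was on its own scale. Each was therefore divided by a factor, the median ratio of its genes to their geometric means over the libraries. On the log2 scale these factors ran from -0.80 in wild boar 2 to 0.50 in domestic pig 2. Levels called rescaled TPM below have been divided by them, and a gene is said to have risen or fallen where its limma adjusted p was under 0.05.

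All 64 genes were above 0 in each of the 6 libraries, and all passed the filter on low values of 1 rescaled TPM in at least 3 libraries. Of all 21280 genes 11692 passed this filter. The median over the 64 genes was 10.6, 11.9 and 10.8 rescaled TPM in wild boars 1 to 3 and 10.1, 8.72 and 10.8 in domestic pigs 1 to 3. The groups overlapped in this median, and domestic pig 2 was the lowest library.

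The highest gene was MRPL40, which encodes a protein of the central protuberance, the crest of the large subunit, with a mean of 54.1 rescaled TPM over the 6 libraries. MRPS26, a small-subunit protein with no bacterial counterpart, followed at 39.6. Next were MRPS11, of the small subunit's platform, at 34.2, and MRPL12, of the stalk that contacts translation factors, at 32.9. Libraries of neighbours in this order overlapped: MRPS26 ran from 28.4 to 48.6, MRPS11 from 25.1 to 41.1 and MRPL12 from 24.6 to 37.8 rescaled TPM. MRPL24, near the exit tunnel, and MRPL13 overlapped in the same way, with means of 28.2 each.

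At the low end stood MRPL36, the counterpart of a very small bacterial protein, at 2.59 rescaled TPM. MRPL17 was at 2.74 and MRPL58, a ribosome-bound peptidyl-tRNA hydrolase, at 2.85. Their libraries overlapped, from 1.83 to 3.11 for MRPL36, 2.16 to 3.23 for MRPL17 and 2.61 to 3.26 for MRPL58. Genes whose proteins sit in a single particle thus differed in mRNA level, from means of 2.59 to 54.1 rescaled TPM, as the plot of levels by library shows.

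**Figure D1:**
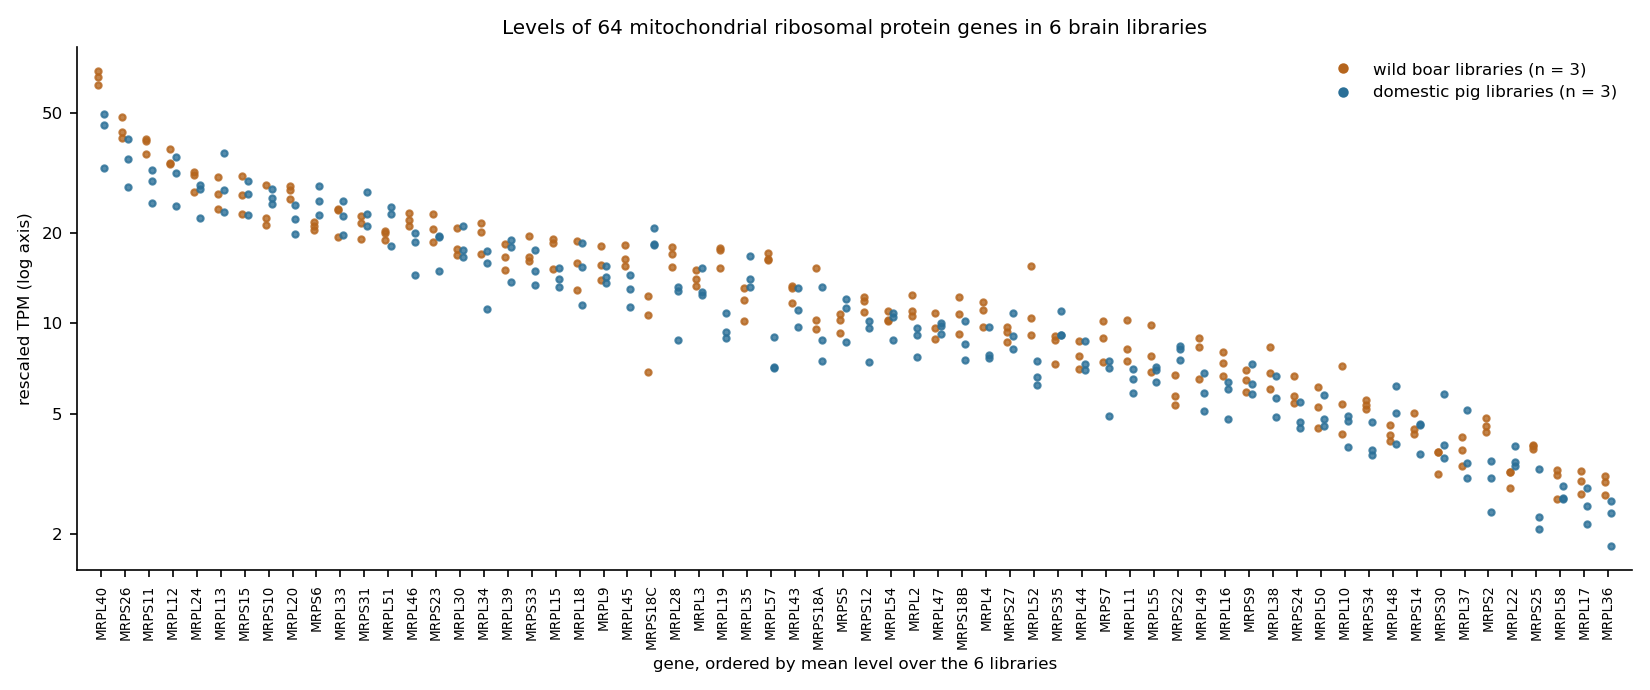
Rescaled TPM (log axis) of each of the 64 genes, ordered by mean level, with a point for each of the 3 wild boar and 3 domestic pig libraries. The order runs from MRPL40 at a mean of 54.1 to MRPL36 at 2.59, and in most genes the points of the groups intermingle.

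The order of the 64 genes was much the same in every library. Spearman's rho over the genes ran from 0.956 to 0.978 for pairs of libraries within a group and from 0.890 to 0.969 between groups. The genes are not independent points, and the libraries share the authors' annotation and length scaling. Within groups the SD of log2(rescaled TPM + 1) had a median of 0.160 over these genes, against 0.157 over the 11692 genes tested. The widest spread among them was that of MRPS18A, at 10.2, 15.3 and 9.57 rescaled TPM in wild boar and 8.84, 7.52 and 13.2 in the domestic pigs.

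Summed over the set, the genes reached 921, 954 and 910 rescaled TPM in wild boars 1 to 3 and 876, 725 and 862 in domestic pigs 1 to 3. All wild boar sums lay above all domestic pig sums, with domestic pig 2 furthest down. As a share of the TPM of nuclear-encoded genes the set took 0.404% ± 0.00765 in wild boar and 0.383% ± 0.0170 in the domestic pigs (SD, n = 3 each). In deposited TPM the sums were 806.4 ± 255.0 and 991.0 ± 210.1 and overlapped, so the side on which wild boar stood depended on the library scale. In tissue RNA, fewer cells of a type and less RNA per cell cannot be told apart.

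The comparison of wild boar with domestic pig asked which of these genes differ between the groups, which breed, data source and labelled tissue divide alike. Most did not pass. After rescaling 8 of 64 rose in wild boar, 2 fell and 54 did not pass (limma, adjusted over all genes tested). Among all 11692 genes tested 19.7% passed, 8.69% higher and 11.1% lower, so the count of 10 in 64 was no larger than the background gave. The median log2 fold change of the 64 was 0.19, against 0.00 for all genes tested. Of the 64, 47 were above 0 in log2 fold change, where 50.7% of all genes were. The median was 0.12 without domestic pig 2 and 0.24 without wild boar 3, its lowest and highest value with a library left out.

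The sign of the median depended on the library scale. On deposited TPM the median of the 64 was -0.28 and that of all genes -0.41, and 7 of the 64 were above 0, against 12% of all genes. On that scale limma called 0 of the 64 and 1.6% of 11752 genes (16 higher, or 0.136%, and 172 lower, or 1.46%, where rescaling gave 1016 and 1292). At an unadjusted p under 0.05 there were 2 of the 64, and 2091 of the 11752. Relative to all genes the set thus stood higher in wild boar by 0.13 on deposited and 0.19 on rescaled TPM, as the cumulative plot of differences shows.

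**Figure D2:**
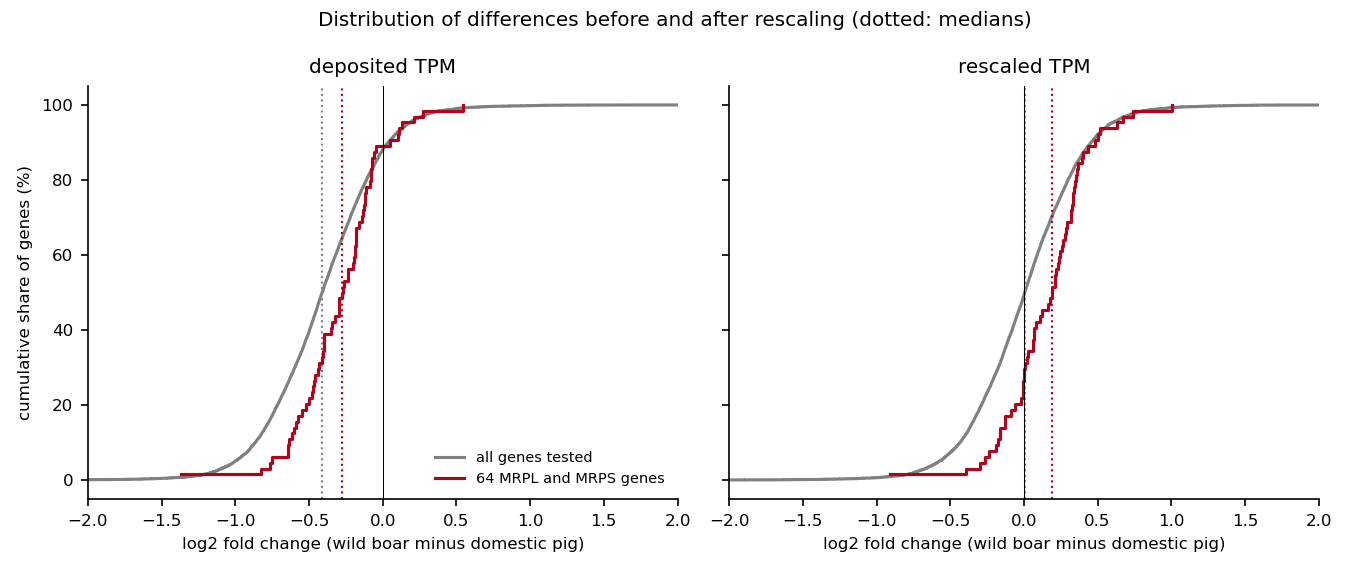
Cumulative share of genes (%) against log2 fold change, wild boar minus domestic pig, on deposited TPM (left) and rescaled TPM (right), for the 64 genes (red) and all genes tested after rescaling (grey), with medians dotted. The red median lies right of the grey one in both panels, at -0.28 against -0.41 and at 0.19 against 0.00.

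Complete separation of the 3 wild boar from the 3 domestic pig libraries was seen in rescaled TPM for 19 of the 64 genes with wild boar above and 6 with wild boar below. The share over all genes tested was 19.2% above and 22.6% below. In deposited TPM 0 genes of the set separated with wild boar above and 3 below (MRPS18C, MRPL22 and MRPL13), where all genes gave 0.408% and 17.1%.

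**Figure D3:**
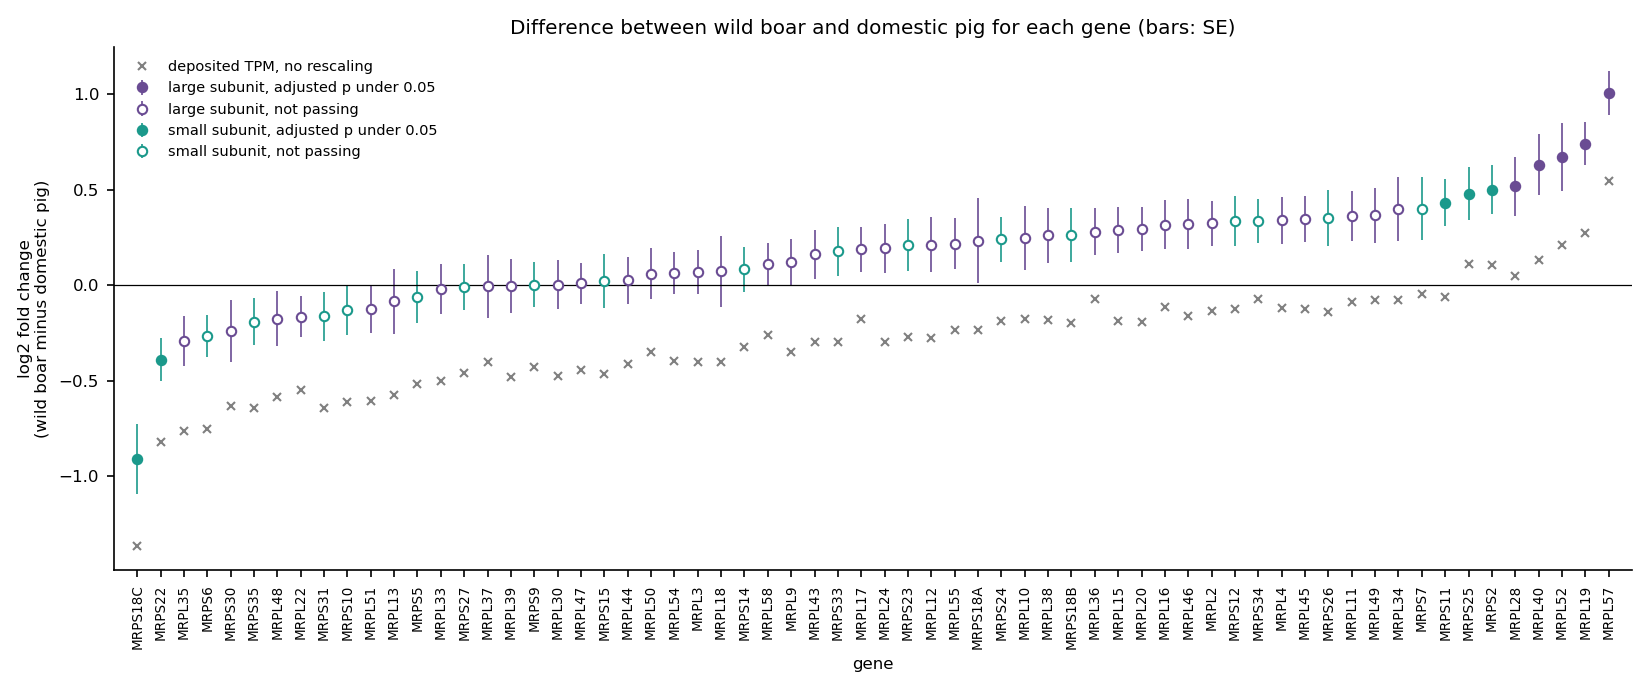
Log2 fold change (wild boar minus domestic pig) of each of the 64 genes on rescaled TPM with its SE, coloured by subunit and filled where the limma adjusted p was under 0.05, with the value on deposited TPM as a grey cross. Filled points are MRPS18C and MRPS22 on the left and 8 genes on the right, from MRPS11 at 0.43 to MRPL57 at 1.01, and every cross lies below its point.

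In the large subunit, counted here as the MRPL genes with MRPS30 and MRPS18A, whose proteins sit there despite their symbols, 5 of 42 genes rose, 0 fell and 37 did not pass. The 11.9% that passed was below the 19.7% of all genes tested. At an unadjusted p under 0.05 there were 15 of the 42, and 4315 of all 11692 genes tested. The median log2 fold change was 0.20. MRPL57, a protein with no bacterial counterpart, had the largest difference of the set. It was at 17.1, 16.3 and 16.4 rescaled TPM in wild boar and 9.04, 7.14 and 7.18 in the domestic pigs. The libraries of a group lay close together and the groups were far apart, with log2 fold change 1.01 (SE 0.12, limma adjusted p = 0.00379). On deposited TPM it was at 0.55 (adjusted p = 0.449) and the groups overlapped.

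MRPL19, the counterpart of a bacterial protein at the interface of the subunits, was at 17.6, 15.3 and 17.8 rescaled TPM in wild boar. In the domestic pigs it was at 10.8, 9.39 and 8.95. Again each wild boar library was above every domestic pig library (log2 fold change 0.74, SE 0.11, limma adjusted p = 0.00717; 0.27 on deposited TPM, adjusted p = 0.708). Both MRPL57 and MRPL19 passed whichever library was left out, with adjusted p of 0.00696 to 0.0210 and 0.0121 to 0.0305.

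Less firm were MRPL52, MRPL40 and MRPL28. MRPL52 was at 10.4, 15.5 and 9.18 rescaled TPM in wild boar and 7.53, 6.27 and 6.66 in the domestic pigs, with wild boar 2 well above the rest (log2 fold change 0.67, SE 0.18, limma adjusted p = 0.0335). When a library was left out it passed only without wild boar 3. MRPL40 was at 65.8, 69.0 and 62.0 against 45.5, 32.7 and 49.7 rescaled TPM (log2 fold change 0.63, SE 0.16, limma adjusted p = 0.0301). Its domestic pig libraries were the more spread, and it passed only without domestic pig 2 or 3. MRPL28, with a bacterial counterpart, was at 15.4, 18 and 17.1 against 13.2, 8.80 and 12.8 (0.52, SE 0.15, limma adjusted p = 0.0472) and missed the threshold whichever library was left out (0.0593 to 0.135).

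By origin, 2 of 24 large-subunit genes with a bacterial counterpart rose and 22 did not pass (median 0.21). Of 17 without a counterpart 3 rose and 14 did not pass (median 0.11). Neither share of genes that passed exceeded the background of 19.7%.

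Parts of the large subunit were small lists, to be read beside the 19.7% of all genes tested that passed. At an unadjusted p under 0.05 there were 4315 of all 11692 genes tested. Of the stalk and its base, MRPL10, MRPL11, MRPL12 and MRPL54 were at log2 0.25, 0.36, 0.21 and 0.06 and 0 of 4 passed, with 1, MRPL11, at an unadjusted p under 0.05. In the central protuberance MRPL40 rose, and MRPL46, MRPL38, MRPL58, MRPL18 and MRPL48 were at 0.32, 0.26, 0.11, 0.07 and -0.18, none passing. Of these 6 genes 2, MRPL40 and MRPL46, were at an unadjusted p under 0.05. Around the exit tunnel, where MRPL45 ties the ribosome to the inner membrane, 0 of 5 passed and 1, MRPL45, was at an unadjusted p under 0.05. MRPL45, MRPL24, MRPL17, MRPL47 and MRPL22 were at 0.35, 0.19, 0.19, 0.01 and -0.17. On deposited TPM all of these except MRPL40 were below 0.

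Of the 22 small-subunit genes 3 rose, 2 fell and 17 did not pass, with a median of 0.13. The 22.7% that passed was close to the 19.7% of all genes tested. By origin, 2 of 12 genes with a bacterial counterpart rose and 1 fell (median 0.05), and of 9 without one 1 rose and 1 fell (median 0.18). These shares, 25% and 22.2%, were near the same background.

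The gene with the largest fall was MRPS18C. It is 1 of 3 relatives of a single bacterial protein: MRPS18C takes that protein's place in the small subunit, MRPS18B lies elsewhere in the small subunit and MRPS18A in the large one. MRPS18C was at 12.3, 6.91 and 10.6 rescaled TPM in wild boar and 18.3, 18.4 and 20.7 in the domestic pigs. Every wild boar library was below every domestic pig library, also in deposited TPM, at 10.8, 3.98 and 12.4 against 16.0, 26.0 and 28.4. The log2 fold change was -0.91 (SE 0.18, limma adjusted p = 0.0148), with adjusted p of 0.0217 to 0.0447 with any 1 library left out, and -1.37 on deposited TPM (adjusted p = 0.0578). Without the filter on low values its adjusted p was 0.0730.

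Its relatives did not pass. MRPS18B was at 10.7, 12.2 and 9.22 rescaled TPM in wild boar and 7.56, 8.52 and 10.2 in the domestic pigs, overlapping (0.26, limma adjusted p = 0.208). MRPS18A, whose libraries are given above, was at 0.23 (limma adjusted p = 0.476). On deposited TPM these were at -0.20 and -0.23. The difference of MRPS18C from its relatives was not tested.

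MRPS22, a small-subunit protein mutated in mitochondrial disease, was at 5.73, 5.34 and 6.76 rescaled TPM in wild boar and 7.58, 8.25 and 8.41 in the domestic pigs. The groups did not overlap (log2 fold change -0.39, SE 0.11, limma adjusted p = 0.0450), but the gene missed the threshold whichever library was left out (0.0570 to 0.142).

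Among the risers of the small subunit, MRPS2 was at 4.57, 4.84 and 4.37 against 3.06, 2.37 and 3.51 rescaled TPM (0.50, SE 0.13, limma adjusted p = 0.0320). MRPS25 was at 3.92, 3.84 and 3.94 against 3.29, 2.28 and 2.09 (0.48, SE 0.14, limma adjusted p = 0.0441). MRPS11 was at 41.1, 40.5 and 36.6 against 29.8, 25.1 and 32.4 (0.43, SE 0.12, limma adjusted p = 0.0426). All had groups that did not overlap after rescaling, and tight wild boar libraries. MRPS2 passed only without domestic pig 2 or 3, MRPS25 only without domestic pig 1 and MRPS11 only without domestic pig 3, and MRPS11 was at -0.06 on deposited TPM.

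**Figure D4:**
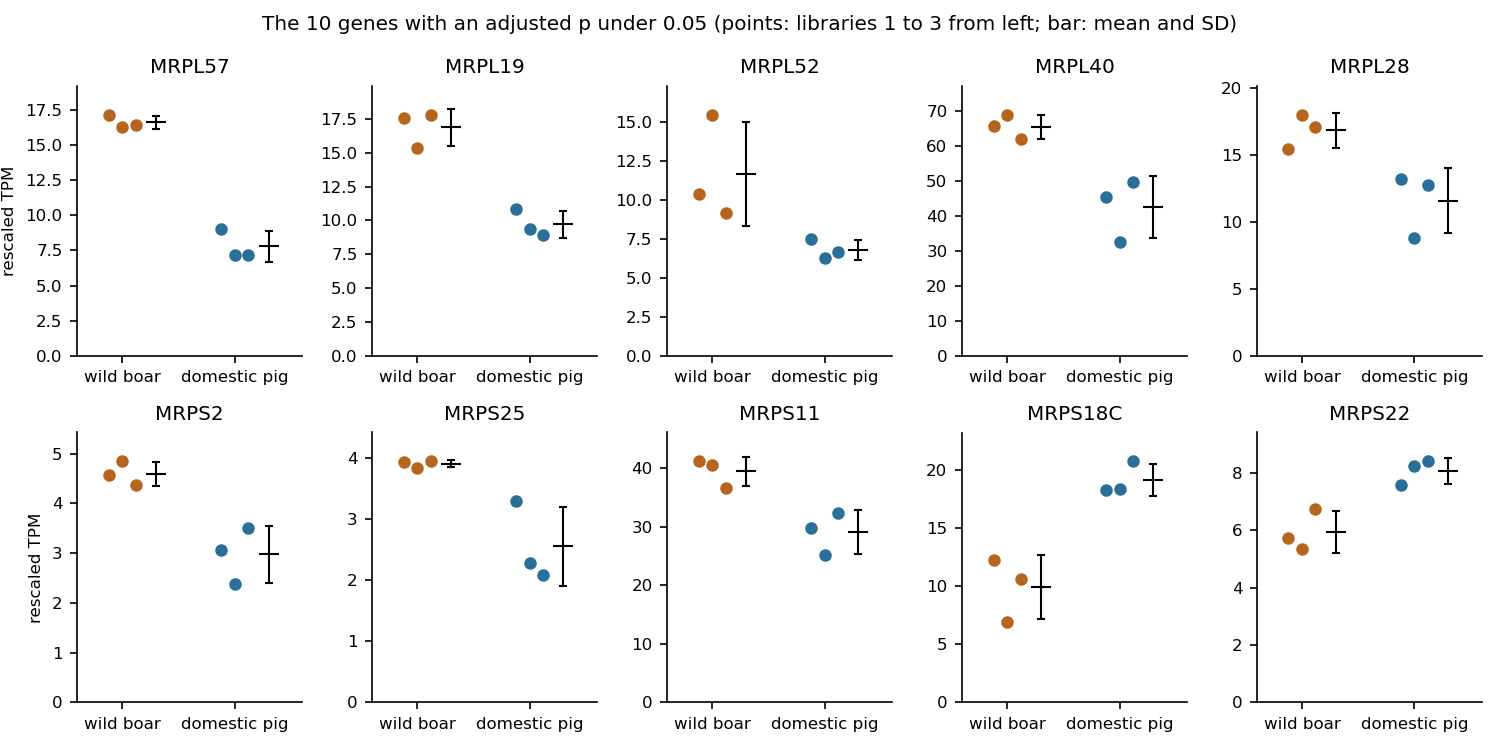
Rescaled TPM of the 10 genes that passed, with a point per library (1 to 3 from left) and the mean and SD of each group beside it. In all 10 panels the 3 wild boar points lie wholly above or, for MRPS18C and MRPS22, wholly below the 3 domestic pig points.

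Of the 10 genes, 3 (MRPL57, MRPL19 and MRPS18C) passed whichever library was left out. Leaving out wild boar 1 or wild boar 2 left 2 genes higher and 1 lower. Without wild boar 3 or domestic pig 1 there were 3 and 1, without domestic pig 2 there were 4 and 1, and without domestic pig 3 there were 5 and 1. No gene of the set passed with a library left out that had not passed with all 6. The percentage of all genes that passed also moved, from 6.53% without wild boar 2 to 19.4% without domestic pig 2.

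Some of these genes lie against another gene in the RefSeq annotation. The span of MRPL19 overlaps that of GCFC2, which encodes a factor linked to splicing. GCFC2 fell, by log2 -0.76 (SE 0.12, limma adjusted p = 0.00760), while MRPL19 rose. MRPS18C overlaps HELQ, a DNA helicase gene, and ABRAXAS1, a gene of DNA repair. HELQ fell by -0.50 (SE 0.11, limma adjusted p = 0.0202) and ABRAXAS1 was at -0.11 (0.730). GCFC2 passed whichever library was left out, and HELQ only without domestic pig 2 or 3. MRPS22 overlaps COPB2, a vesicle coat gene, at -0.21 (0.193), and MRPS25 overlaps NR2C2, a nuclear receptor gene, at 0.01 (0.983). MRPL57 overlaps SKA3 and MRPL28 overlaps TMEM8A, and no tested gene carried either symbol. The libraries were stranded per the labels, but the strand setting of the counting was not given in the sources used here. Whether reads of overlapping genes were split between them was not tested. MRPS11 lies next to MRPL46 without overlap, and MRPL46 was at 0.32 (limma adjusted p = 0.116).

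Other proteins of the same particle carry other symbols. Of 6 such genes 1 rose and 5 did not pass (16.7% against 19.7% of all genes tested), with a median of 0.22. NDUFAB1, the mitochondrial acyl carrier protein, rose by 0.38 (SE 0.11, limma adjusted p = 0.0482, and not with any 1 library left out). GADD45GIP1 and AURKAIP1 were at 0.39 and 0.41, DAP3 at -0.13 (limma adjusted p = 0.0740, 0.154 and 0.352).

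Factors that assemble the ribosome mostly did not pass. In this list of 23 genes the RNA methyltransferase gene MRM1 rose by 0.44 (limma adjusted p = 0.0377), METTL17, an assembly factor, fell by -0.43 (0.0258), and 21 did not pass (median 0.11), so that 8.70% passed against 19.7% of all genes tested. MRM1 missed the threshold whichever library was left out, and METTL17 passed only without domestic pig 2.

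Of 15 factors that work on the mitochondrial ribosome during translation, 2 rose, 4 fell and 9 did not pass (median -0.11). Over all genes tested 8.69% rose and 11.1% fell. SLIRP, which with LRPPRC stabilises mitochondrial mRNAs, was at 58.0, 61.9 and 47.5 rescaled TPM in the wild boars and 22.4, 15.4 and 17.2 in the domestic pigs. It rose by 1.56 (SE 0.16, limma adjusted p = 0.00269), and its groups did not overlap on either scale. GUF1, a translation elongation GTPase, fell from 6.54 ± 0.0655 to 2.70 ± 0.183 (log2 fold change -1.03, SE 0.10, limma adjusted p = 0.00232), and was the only gene of this list that passed on deposited TPM (-1.42, limma adjusted p = 0.0160). GFM2, a ribosome recycling factor, MTRF1L, a release factor, and MTIF2, an initiation factor, fell by -0.66, -0.61 and -0.56. SLIRP, GUF1, GFM2, MTRF1L and MTIF2 passed whichever library was left out. TUFM, the elongation factor that delivers tRNAs, rose by 0.40 (limma adjusted p = 0.0282), but passed only without domestic pig 2 when a library was left out and was at -0.07 on deposited TPM.

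Mitochondrial aminoacyl-tRNA synthetases load tRNAs. Of 16 tested, CARS2 rose by 0.38, MARS2 and RARS2 fell by -0.72 and -0.52, and 13 did not pass (18.8% passing, median -0.08; limma adjusted p = 0.0351, 0.0120 and 0.0298). MARS2 passed whichever library was left out, RARS2 only without domestic pig 3, and CARS2 with none left out. Of 6 genes of mitochondrial transcription MTERF1 fell by -0.79 (limma adjusted p = 0.00630), also whichever library was left out, where 11.1% of all genes tested fell. The other 5 did not pass, TFAM among them at -0.33 (median -0.27). The transcription list summed to 27.3 ± 1.74 rescaled TPM in wild boar and 35.3 ± 3.44 in the domestic pigs (SD, n = 3 each), without overlap on either scale. The synthetase list summed to 82.4 ± 0.827 and 92.8 ± 2.97, without overlap after rescaling but overlapping on deposited TPM.

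The products of mitochondrial translation come from 13 mitochondrially encoded genes. Their log2 fold changes ran from -1.03 for ND3 to 1.22 for ATP8 with a median of -0.24, and limma called 0 of 13, with 1 at an unadjusted p under 0.05. On deposited TPM their median was -0.75 and 2 of 13 fell (ND3, and COX2, whose groups overlapped), where 1.46% of all genes tested fell. At an unadjusted p under 0.05 there were 9 of the 13 on that scale, and 2091 of all 11752 genes. The sum of the 13 was 46237 ± 10036 rescaled TPM in wild boar and 58881 ± 17833 in the domestic pigs (SD, n = 3 each). The groups overlapped in this sum. The median of the 13 was thus below 0 and that of the ribosomal protein genes above it, and the difference between the sets was not tested.

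Among nuclear genes for other mitochondrial proteins, 4 of 15 rose and 11 did not pass, with a median of 0.20, where 8.69% of all genes tested rose. MDH2, a citric acid cycle enzyme, PHB1, a prohibitin, TOMM40, the import pore, and VDAC1, the outer membrane channel, rose by 0.57, 0.69, 0.50 and 0.48 (limma adjusted p = 0.0143, 0.0234, 0.0292 and 0.0361). PHB1 passed without 4 of the 6 libraries in turn, MDH2 without 3, TOMM40 without 2 and VDAC1 without 1. On deposited TPM limma called 0 of the 15, with 0 at an unadjusted p under 0.05.

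Among 8 regulators of mitochondrial gene expression, NRF1, GABPA and GABPB1 fell and 5 did not pass, where 11.1% of all genes tested fell. NRF1 and the GABP subunits are transcription factors known to bind promoters of many nuclear genes for mitochondrial proteins. Their log2 fold changes were -0.46, -0.37 and -0.42 (limma adjusted p = 0.0399, 0.0432 and 0.0259). NRF1 and GABPA missed the threshold whichever library was left out and GABPB1 passed only without domestic pig 2. The coactivator gene PPARGC1A was at 9.33 ± 3.06 rescaled TPM in wild boar and 9.63 ± 3.29 in the domestic pigs (SD, n = 3 each; limma adjusted p = 0.931).

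**Figure D5:**
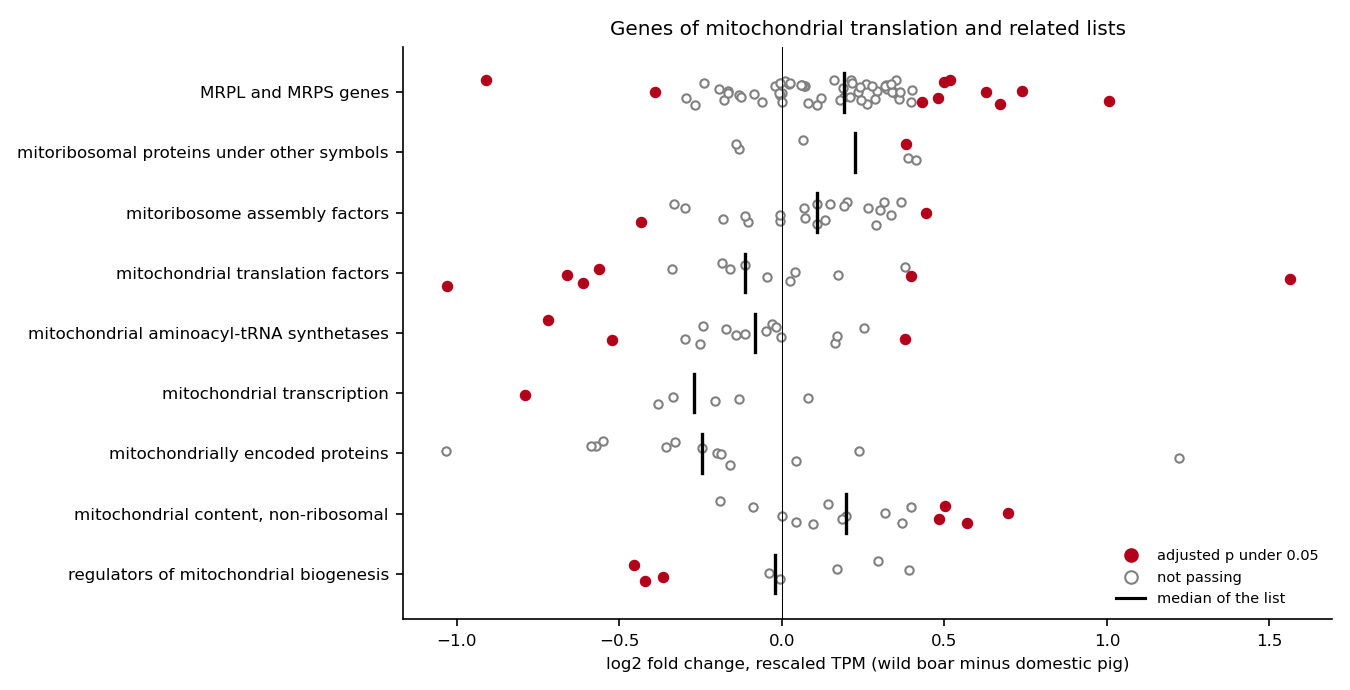
Log2 fold change on rescaled TPM (wild boar minus domestic pig) of each tested gene in the MRPL and MRPS set and in 8 related lists, red where the limma adjusted p was under 0.05, with a black bar at each median. The medians of the ribosomal (0.19) and other mitochondrial protein genes (0.20) lie right of 0, and those of translation factors (-0.11), synthetases (-0.08) and mitochondrially encoded genes (-0.24) left of it.

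Markers of brain cells were present in every library. Of 4 markers each of neurons, astrocytes and oligodendrocytes limma called 0, with 1, 1 and 0 at an unadjusted p under 0.05. Of 4 cortical markers SLC17A7 and NEUROD2 rose, where 8.69% of all genes tested rose. All 4 were above 0 in log2 fold change, and 3 were at an unadjusted p under 0.05, as were 4315 of all 11692 genes tested. The cortical list summed to 72.6 ± 5.40 rescaled TPM in wild boar and 47.7 ± 12.4 in the domestic pigs (SD, n = 3 each). The red blood cell list summed to 815 ± 452 and 159 ± 70.3, all 3 tested genes rising, of which HBB passed whichever library was left out and AHSP and ALAS2 did not. SLC17A7, NEUROD2, TAGLN and ACTA2 also missed the threshold with some library left out. Of 5 vessel wall and fibroblast markers TAGLN and ACTA2 rose, with sums of 35.9 ± 15.4 and 16.5 ± 3.11, and ALB, the only tested gene of the liver and muscle list, was at 1.43 (limma adjusted p = 0.211). On deposited TPM limma called 0 of the cortical and 0 of the vessel wall markers, with 0 at an unadjusted p under 0.05. Of 4 red blood cell genes it called 2 higher, where 0.136% of all genes tested were higher. The part of these cells in the differences of the ribosomal protein genes was not tested.

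Circular RNAs, loops made by back-splicing, were also deposited as TPM. By position in RefSeq genes, 9 of 11375 lay in 7 genes of the set, and 2 more in MRPL42 and MRPL1, which are not among the 64. Of the 9, 7 were above 0 in at least 3 libraries, and in 3 of these every wild boar library was below every domestic pig library. None of the 7 had wild boar above throughout. Over all 9709 circRNAs above 0 in 3 or more libraries the shares were 18.2% below and 2.46% above, and the deposited circRNA sum was 1994 to 2121 TPM in wild boar and 2879.5 to 3367 in the domestic pigs.

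The MRPL22 circRNA (ssc_circ_6343, chromosome 16, 68241326 to 68250610, minus strand, in the coordinates of the deposited table, whose build was not given in the sources used here) was at 0.355, 0.176 and 0.174 TPM in wild boar. In the domestic pigs it was at 0.554, 0.909 and 0.876. The mRNA of MRPL22 lay on the same side, at 3.20, 3.21 and 2.85 against 3.93, 3.36 and 3.48 rescaled TPM, and did not pass (-0.17, limma adjusted p = 0.294). The MRPS35 circRNA was at 0.0835, 0.233 and 0.102 against 0.390, 0.291 and 0.633 TPM. Its mRNA was at 7.35, 8.82 and 9.11 against 9.15, 9.15 and 11.02 rescaled TPM, also below throughout and not passing (-0.19, limma adjusted p = 0.286). The circRNA of MRPL3 was listed at 0 in wild boar 1 and 3 and at 0.0582 in wild boar 2, against 0.146, 0.327 and 0.267. The MRPL3 mRNA did not follow that side, at 14.0, 13.3 and 15.1 against 12.4, 15.3 and 12.7 rescaled TPM, overlapping (0.07, limma adjusted p = 0.695). The circRNA levels are low and, unlike the mRNA levels, were not rescaled, so the sides are compared on unlike scales. No test was made on the circRNAs.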

How the data were processed

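Per the labels' protocols, brain RNA was isolated with Trizol, depleted of ribosomal RNA and made into stranded libraries. STAR 2.6.0c and BWA 0.7.17 stand in the submitters' processing notes, which assign them no step. The sources used here give no quantifier, genome build or annotation. TPM were deposited by the authors for 21280 protein-coding genes and for 11375 circRNAs. TPM keeps no depth.

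Symbols came from a table of Ensembl identifiers (14821 genes matched). The 64 genes and all gene lists were chosen with earlier results of these data known. Median-ratio factors used 10105 genes at TPM of at least 1 in all 6 libraries. This scaling sets the typical gene to no change. Genes at 1 or more rescaled TPM in at least 3 libraries were tested on log2(rescaled TPM + 1), which understates changes of low genes, by limma 3.58.1 (R 4.3.3, mean-variance trend). Tests set the wild boar group against the domestic group, were two-sided and were adjusted over all genes tested by Benjamini-Hochberg, with a threshold of 0.05. In a simulation with the same design (11692 genes, 200 changed), 2.5% of changes of 0.5 log2 units, 95.5% of 1 unit and 100% of 2 units were recovered. The changed genes were drawn only from genes above a minimum mean level. They were also fewer than the 2308 that passed in the data, which makes the adjusted threshold stricter in the simulation. These shares therefore do not give the sensitivity for the 64 genes.

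The genes named were up to 12 that passed per direction, the 6 of highest and 4 of lowest mean level, the 3 of widest spread within groups, the 3 relatives MRPS18A, MRPS18B and MRPS18C, the members of the stalk, protuberance and tunnel lists and up to 4 of lowest p per other list. MTIF2, TUFM, PPARGC1A, MRPS35, MRPL3, the markers of other cells and the neighbouring genes were chosen after their values were seen. CircRNAs were placed in a gene when inside its RefSeq span within 5 bases; 98.5% of circRNAs lay in a span, against 40.7% after a shift of 1000000 bases. Alternatives tried were other library scales, pseudocounts, filters and variance models, a replicate block and leaving out each library.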

Additional observations from a re-analysis of the deposited data

How the results depend on the processing

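The 8 higher and 2 lower genes and the direction of their median held with quantile scaling and a pseudocount of 0.1. On deposited TPM limma called 0 higher and 0 lower, with 2 genes at an unadjusted p under 0.05, and the median was -0.28. There the signs also turned for MRPL12 (-0.28), MRPL17 (-0.18), MRPL18 (-0.40), MRPL24 (-0.30), MRPL36 (-0.072), MRPL58 (-0.26), MRPS11 (-0.061), MRPS18A (-0.23), MRPS18B (-0.20) and MRPS26 (-0.14). With TPM rescaled over nuclear protein-coding genes, 4 were higher and 2 lower, MRPL18 was at -0.026, and over all genes 514 were higher and 1743 lower. Without the filter on low values 2 were higher and 0 lower, and over all 21280 genes 388 were higher and 968 lower. Leaving out a library gave 2 to 5 higher, 1 lower each time and a median of 0.12 to 0.24. Single genes that turned were MRPL13, at 0.083 when domestic pig 1 was dropped, and MRPL18, which ran from -0.10 (domestic pig 1 dropped) to 0.22 and was also below 0, at -0.054, when wild boar 3 was dropped. In the 5 lists of ribosomal proteins under other symbols, assembly factors, translation factors, synthetases and transcription together, 5 genes were higher and 8 lower. The higher count was 0 on deposited TPM, 1 with the nuclear scale, 3 without the filter, 1 with the replicate block and 1 to 2 with a library left out. The lower count was 1 on deposited TPM, 4 at a mean of at least 5 rescaled TPM, where 34 of these genes were tested, and 6 to 8 with a library left out. The cause of these shifts was not tested. With the replicate number as a block, 2 of the 64 were higher (MRPL57 and MRPL19) and 1 lower (MRPS18C). Over all 11692 genes tested 556 were then higher and 732 lower. The labels tie the numbers to no shared animal or day, and same-numbered libraries deviated from their group means with correlations of 0.12, -0.07 and -0.16, so the numbers do not pair the samples, and not every library correlated best with its own number. The planned correction for protein length and the search of promoters for motifs were not run, because protein and promoter sequences were not used here. TPM give no depth, so counting error is not separated from other spread.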
